A study of Mus musculus with 4 samples.

Results

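The enzymes that burn fatty acids were examined in the ventricles of mice that carry extra Cdk8 in the heart. The group holds 32 genes of mitochondrial or peroxisomal fatty acid oxidation, found as rows of the deposited FPKM table with these symbols, out of 23352 symbols on 23847 rows. Membership rests on known function; the list was drawn up with earlier results of these data known. FPKM are fragments scaled to transcript length and sequencing depth, so levels of different genes can be compared.

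Ventricles came from male C57BL/6 mice at postnatal day 21. Cdk8Tg samples (2 libraries) overexpressed Cdk8, the kinase of the Mediator complex, and are labelled cardiac specific, while WT samples (2 libraries) were wild type. The sources used here do not name the promoter that drives the transgene. The study asks what raised Cdk8 does to gene expression in the heart. Cdk8 itself read 7.89 and 9.86 FPKM in WT but 7309 and 8122 FPKM in Cdk8Tg (log2 change 9.62 ± 0.13, SE, limma adjusted p = 1.8e-05).

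Fatty acids are the main fuel of the adult heart. They are bound in the cytosol, activated to acyl-CoA, carried into mitochondria as carnitine esters and shortened there in repeated rounds of dehydrogenation, hydration, a second oxidation and thiolysis. Auxiliary enzymes move or remove double bonds, and peroxisomes run a parallel route for long or unusual chains. Nuclear receptors of the PPAR and ERR families, with the coactivator PGC-1, are known to drive many of these genes in heart muscle.

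Most of the pathway was lower in Cdk8Tg ventricles, and falls were found at every step of the mitochondrial spiral. All 32 genes passed the filter of a mean of at least 1 FPKM. Of them, 23 fell, 1 rose and 8 were not called (limma, Benjamini-Hochberg adjusted p under 0.05 over 11888 rows). Over all tested rows, 7.98% were called lower and 16.9% higher. The 23 genes that fell stood at 26.1% to 75.3% of their WT mean, with adjusted p between 0.0023 and 0.045. The median log2 change of the 32 genes was -0.59, against 0.13 for all tested rows. After median-of-ratios scaling, which sets that general shift to 0.00, 24 fell and 0 rose with a median of -0.73, while 11.7% of all rows were lower and 7.96% higher. In 25 genes both Cdk8Tg libraries lay below both WT libraries, as they did in 21.1% of all tested rows. In 2 genes both lay above, as in 49.2% of all rows, and in the other 5 the groups overlapped.

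The calls rested strongly on the filter and on the WT libraries. When all 23847 rows were kept in the limma fit, 0 of the 32 genes were called lower or higher (smallest adjusted p = 0.051) and 279 rows in all, although 23 were lower and 1 higher at an unadjusted p under 0.05. Without WT replicate 1, 10 of the genes were called lower, and without WT replicate 2 only 1 was, Ech1. All called rows together dropped from 2958 to 628 and 287 in the same fits, which keep 1 residual degree of freedom. No log2 change of the 23 genes turned its sign in any of the 15 alternatives. In the authors' deposited table, 21 of the 32 genes were lower at q under 0.05 and 0 higher, against 8.43% and 5.53% of its 12393 tested genes. Hadhb and Fabp3 were the fallen genes that this table did not call, with q = 0.053 and q = 0.081.

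**Figure D1:**
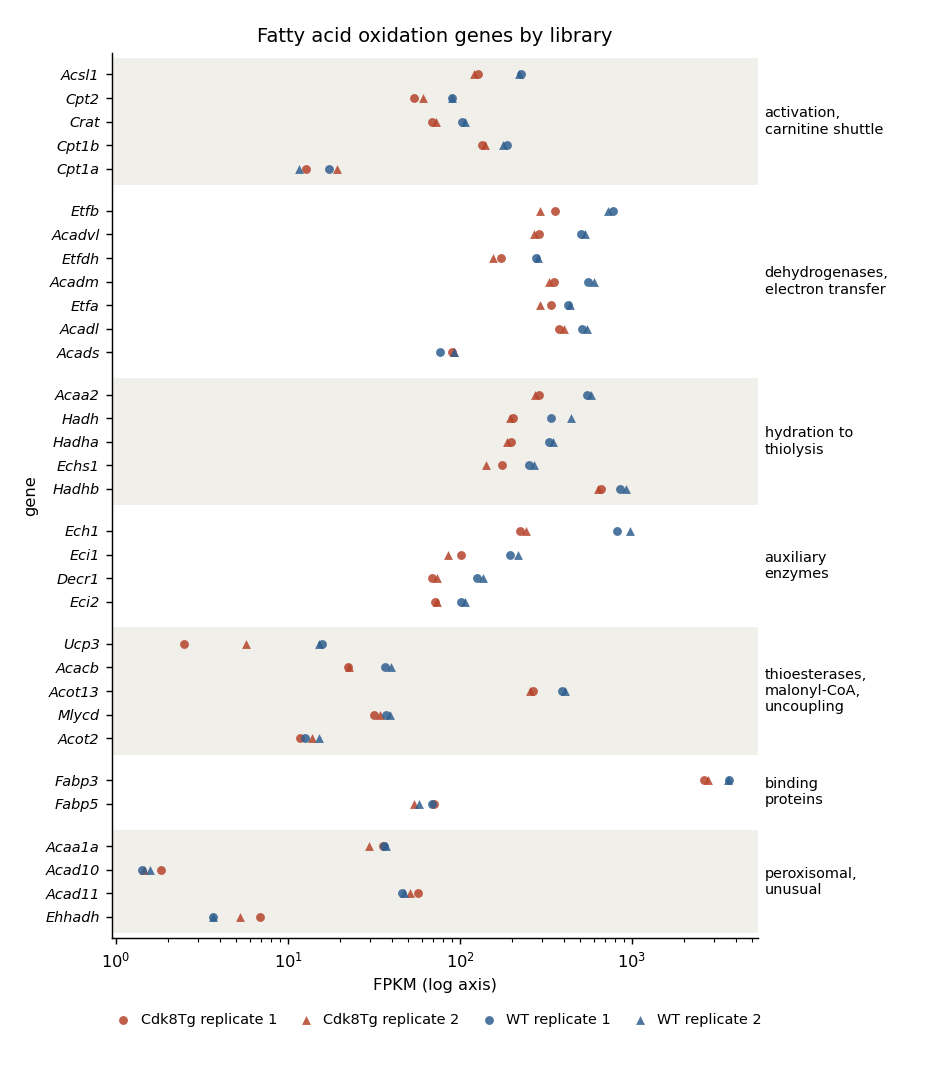
FPKM (log axis) of each of the 32 genes in each library, grouped by role; red marks Cdk8Tg, blue WT, circles replicate 1 and triangles replicate 2. In 25 genes both red points lie left of both blue points, while at the bottom Ehhadh and Acad11 have both red points on the right.

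Short stretches upstream of a few genes are shown first, and these genes were picked with the values known. Ech1 and Ucp3 fell most, and Etfb and Etfa encode partner subunits that fell by unequal amounts. Hadha and Hadhb start back to back, and Ehhadh was the gene that rose. Whether the stretches bear on these changes was not tested. The sequences are RefSeq's on GRCm38.p6, read 5′ to 3′ along the gene's strand and ending just before the outermost annotated start. Capitals mark matches, on either strand, to the motifs named after the list.
Ech1, chr7:28825117-28825216, plus strand: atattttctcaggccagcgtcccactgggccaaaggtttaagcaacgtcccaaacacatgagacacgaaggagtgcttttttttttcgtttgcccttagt
Ucp3, chr7:100472890-100472989, plus strand: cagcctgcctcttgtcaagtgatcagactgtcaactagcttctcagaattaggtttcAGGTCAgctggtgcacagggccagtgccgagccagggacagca
Etfb, chr7:43443972-43444071, plus strand: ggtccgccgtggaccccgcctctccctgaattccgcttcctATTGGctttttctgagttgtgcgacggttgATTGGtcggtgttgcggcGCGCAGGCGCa
Etfa, chr9:55512244-55512343, minus strand: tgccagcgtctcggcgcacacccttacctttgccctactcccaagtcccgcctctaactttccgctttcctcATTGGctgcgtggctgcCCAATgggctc
Ehhadh, chr16:21787835-21787934, minus strand: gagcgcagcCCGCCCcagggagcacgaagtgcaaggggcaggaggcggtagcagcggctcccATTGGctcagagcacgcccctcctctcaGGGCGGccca
Hadha and Hadhb, chr5:30155163-30155247, plus strand, the whole gap between their annotated transcripts: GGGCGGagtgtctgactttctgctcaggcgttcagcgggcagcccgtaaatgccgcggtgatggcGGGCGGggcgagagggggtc

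The motifs were searched on both strands in windows from 250 bases before to 50 bases after each RefSeq start. Of the 32 genes, 26 had a window, and 18 of these had fallen. The ERR element TNAAGGTCA and the PPAR-type direct repeat (2 copies of AGGNCA with 1 base between) were found in 0 of the 26, and in 1.28% and 0.381% of all 32851 windows. The core AGGTCA, which both longer motifs can contain, was in 6 of the 26 (Acacb, Acadm, Acadvl, Cpt1a, Echs1 and Ucp3) against 16.3% of all windows, and the NRF1 element (GCGCA and GCGC with 1 base between) in 3 (Acad10, Etfb and Etfdh) against 4.60%. The ETS core CCGGAAG occurred in 2 (Cpt2 and Mlycd) against 8.86%, the CCAAT box in 13 against 37.4% and the GC box GGGCGG in 17 against 35.7%. Etfb and Etfa, printed above, each carry a pair of CCAAT boxes, and the NRF1 element stands in Etfb alone. The printed stretch of Ech1 holds no match to any of the 7 motifs, and the GC boxes of its window lie nearer the RefSeq start. A match describes these letters only.

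Activation and entry into mitochondria were lower, apart from the liver-type carnitine palmitoyltransferase. Acsl1, the main acyl-CoA synthetase of heart, read 227 and 220 FPKM in WT but 127 and 120 FPKM in Cdk8Tg, so that the groups lay well apart. Its log2 change was -0.85 ± 0.08 (SE; limma adjusted p = 0.0053). Cpt1b, the muscle isoform that makes acylcarnitine at the outer membrane, was at 135 and 139 against 187 and 177 FPKM, a smaller change of -0.41 ± 0.08 (adjusted p = 0.024). Cpt2, which turns acylcarnitine back into acyl-CoA inside, fell to 64.3% of WT and Crat, the acetylcarnitine enzyme, to 67.6%. Cpt1a, the isoform of liver and of the fetal heart, was at 12.8 and 19.2 FPKM against 17.3 and 11.6 FPKM in WT, with overlapping groups (adjusted p = 0.71). On the equal-sum scale Cpt1b lost its call (-0.21, adjusted p = 0.081). Cpt1b was the more abundant isoform in every library. It exceeded Cpt1a 10.6-fold and 7.24-fold in Cdk8Tg and 10.8-fold and 15.2-fold in WT. Of the 31-base stretches of Cpt1b, 79.7% also lie in Gm44502, a same-strand transcript over its exons, so its level is uncertain.

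Among the acyl-CoA dehydrogenases, which open each round, the enzymes for very long, long and medium chains fell and the short-chain enzyme was not called. Acadvl stood at 287 and 269 FPKM in Cdk8Tg against 507 and 534 in WT (log2 change -0.90 ± 0.09, limma adjusted p = 0.0056). Acadm was at 352 and 330 against 558 and 599 FPKM (-0.76 ± 0.09, adjusted p = 0.0081), and Acadl at 377 and 402 against 511 and 544 (-0.44 ± 0.09, adjusted p = 0.027). All 3 were lower in both Cdk8Tg libraries than in either WT library. The call of Acadl was lost under quantile normalization (-0.13, adjusted p = 0.29) and on the equal-sum scale (-0.24, adjusted p = 0.08). Acads, the short-chain enzyme, was at 89.3 and 92.4 FPKM against 76.8 and 92 FPKM in WT, with overlapping groups (adjusted p = 0.47). The ratio of Acadm to Acads was 3.94 and 3.57 in Cdk8Tg and 7.27 and 6.51 in WT. Exons of Acadvl overlap Dvl2 on the opposite strand, and 33.2% of its 31-base stretches occur elsewhere.

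The electron transfer chain that takes electrons from these dehydrogenases was lower too, and unequally so. Etfb, the beta subunit of electron transfer flavoprotein, dropped from 779 and 723 FPKM in WT to 359 and 293 FPKM, a log2 change of -1.21 ± 0.13 (limma adjusted p = 0.0064). Etfa, its alpha partner, was at 337 and 292 against 424 and 434 FPKM, a change of -0.45 ± 0.10 (adjusted p = 0.033). The call of Etfa was lost under quantile normalization (-0.17, adjusted p = 0.21), on the equal-sum scale (-0.25, adjusted p = 0.078) and without Cdk8Tg replicate 2 (-0.35, adjusted p = 0.063). Etfdh, the oxidoreductase that passes the electrons to ubiquinone, fell to 58.8% of WT. The ratio of Etfb to Etfa was therefore 1.07 and 1 in Cdk8Tg but 1.84 and 1.67 in WT. Of the stretches of Etfb, 49.9% are shared with the overlapping same-strand transcript Gm45233, and this limits the value of the ratio.

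All 5 enzymes from hydration to thiolysis fell. Echs1, the short-chain hydratase, went to 60.9% of WT and Acaa2, the mitochondrial thiolase, to 49.8%. Hadh, the short-chain hydroxyacyl-CoA dehydrogenase, was at 203 and 195 FPKM in Cdk8Tg, and its WT libraries spread more widely, at 339 and 440 FPKM (log2 change -0.95 ± 0.14, limma adjusted p = 0.012). Hadha and Hadhb encode the alpha and beta subunits of the trifunctional protein of the inner membrane, which handles long chains. Their annotated genes lie head to head on chromosome 5, Hadha on the minus strand at 30118304 to 30155162 and Hadhb on the plus strand at 30155248 to 30184593, with the 85 bases printed above between them. Hadha was at 197 and 188 FPKM against 327 and 346 (-0.80 ± 0.09, adjusted p = 0.0065). Hadhb was at 656 and 638 against 855 and 920 (-0.45 ± 0.09, adjusted p = 0.026). Hadhb lost its call under quantile normalization, with a change of -0.06 (adjusted p = 0.65), and on the equal-sum scale (-0.26, adjusted p = 0.063). The ratio of Hadha to Hadhb moved from 0.382 and 0.376 in WT to 0.3 and 0.294 in Cdk8Tg. Of the stretches of Hadhb, 23.7% also lie in other annotated genes, mainly Gm13910.

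The auxiliary enzymes that make unsaturated chains degradable included Ech1, which fell most on the deposited scale, and all 4 were lower. Ech1, a dienoyl-CoA isomerase, dropped from 818 and 968 FPKM in WT to 223 and 243 FPKM, with a wide gap between the groups. Ucp3 fell more than Ech1 with a pseudocount of 0.1 (-2.00 against -1.94), under quantile normalization (-1.88 against -1.71) and without Cdk8Tg replicate 2 (-2.23 against -1.99). The log2 change of Ech1 was -1.93 ± 0.12 (limma adjusted p = 0.0023), and leaving out single libraries gave -2.05 to -1.81. Ech1 lost its call when low rows were kept in the fit (adjusted p = 0.065). None of its 31-base stretches is shared with another gene. Eci1, an enoyl-CoA isomerase, was at 101 and 84.7 against 195 and 217 FPKM (-1.14 ± 0.12, adjusted p = 0.0062), whereas its relative Eci2 fell to 69.5% of WT. Decr1, the dienoyl-CoA reductase, fell to 54.7% of WT. In WT, Ech1 was 6.54 and 7.12 times as abundant as Decr1, and in Cdk8Tg 3.24 and 3.29 times.

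**Figure D2:**
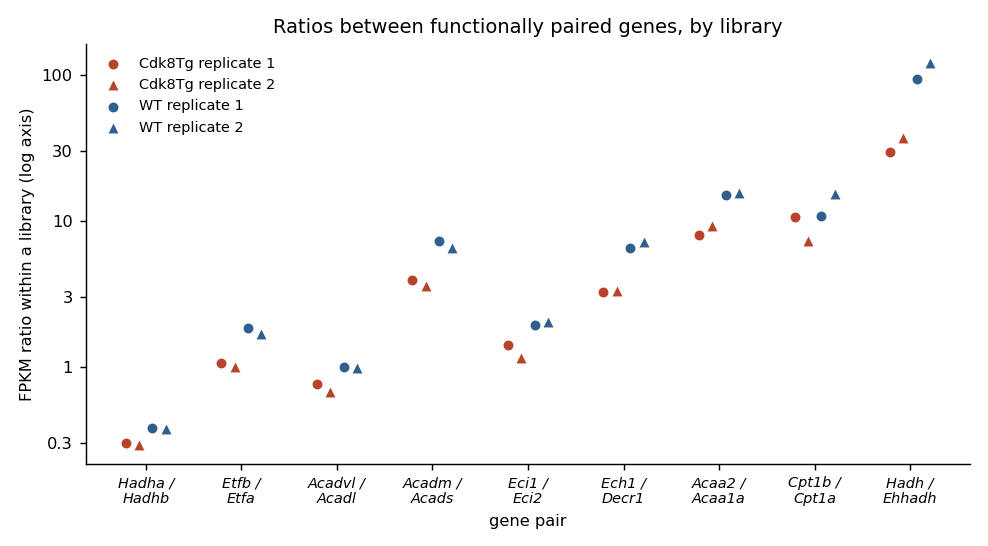
Ratio of FPKM (log axis) between 9 pairs of related genes within each library; red is Cdk8Tg and blue WT. In each of the 9 pairs both Cdk8Tg ratios lie below both WT ratios, most narrowly for Cpt1b to Cpt1a, where Cdk8Tg replicate 1 (10.6) nearly meets WT replicate 1 (10.8).

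These pairs were chosen with the values known. With 2 libraries against 2 the smallest two-sided p of an exact permutation test is 0.333, so no ratio was tested.

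Of 5 genes of thioesterases, malonyl-CoA control and uncoupling, 3 fell and 0 rose, beside 7.98% lower and 16.9% higher over all tested rows. Ucp3, the mitochondrial uncoupling protein of muscle, read 15.7 and 15.1 FPKM in WT but 2.5 and 5.69 FPKM in Cdk8Tg. The groups were far apart although the Cdk8Tg libraries differed (log2 change -1.76 ± 0.29, limma adjusted p = 0.016). About 76 and 166 fragments lay behind the Cdk8Tg values if FPKM were scaled by each library's own total, a counting error of about 11.5% and 7.77%, so the gap between these libraries was larger than counting error. Acot13, a thioesterase that releases free fatty acid, was at 265 and 255 FPKM against 391 and 407 (-0.61 ± 0.08, adjusted p = 0.011). Acot2, a mitochondrial thioesterase, was at 11.8 and 13.8 against 12.5 and 15.1 FPKM, with overlapping groups (adjusted p = 0.59), and 37.8% of its stretches are shared, mainly with Acot1. Acacb makes the malonyl-CoA that blocks Cpt1, and Mlycd destroys it. Acacb was at 22.4 and 22.5 FPKM in Cdk8Tg against 36.4 and 39.8 in WT (-0.74 ± 0.08, adjusted p = 0.0072). Mlycd was at 31.6 and 34.2 against 37.2 and 39.1 FPKM, which was not called as deposited (-0.21 ± 0.08, adjusted p = 0.12) but was called lower after median-of-ratios scaling (-0.35, adjusted p = 0.04).

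Of the fatty acid binding proteins, the heart form was lower and the epidermal form was not called. Fabp3, the most abundant transcript of the group, was at 2636 and 2776 FPKM against 3653 and 3615 FPKM in WT (log2 change -0.43 ± 0.11, limma adjusted p = 0.045). This was the weakest of the calls, and it was lost under quantile normalization (log2 change -0.00), on a scale of equal FPKM sums (adjusted p = 0.11), and when either WT library was left out (adjusted p = 0.29 and 0.3). Of its stretches, 50.1% occur in other genes, mainly the pseudogene Fabp3-ps1. Fabp5 was at 70.9 and 54.0 against 68.9 and 58.1 FPKM, with overlapping groups.

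Genes were grouped by an assigned role, and where their proteins lie in the cell was not checked. Of the 4 peroxisomal and unusual enzymes, 0 fell and 1 rose, beside 7.98% lower and 16.9% higher over all rows. Their difference from the other members was not tested. At an unadjusted p under 0.05 in the limma fit the counts were the same, 0 and 1. Ehhadh, the bifunctional hydratase and dehydrogenase of peroxisomes, was at 6.87 and 5.27 FPKM against 3.66 and 3.67 FPKM in WT, so that both Cdk8Tg libraries were higher. Its log2 change of 0.59 ± 0.14 (limma adjusted p = 0.033) was not called after median-of-ratios scaling (0.47, adjusted p = 0.071), under quantile normalization (adjusted p = 0.091), without Cdk8Tg replicate 1 (adjusted p = 0.079), when either WT library was left out (adjusted p = 0.13 and 0.14), or in the authors' deposited table (q = 0.089). Acad11, a dehydrogenase for long hydroxylated chains, was at 57.0 and 51.1 against 45.9 and 47.4 FPKM (0.21 ± 0.09, adjusted p = 0.14), and was called higher only on the equal-sum scale (adjusted p = 0.018). Acaa1a, a peroxisomal thiolase, was at 35.9 and 29.5 against 36.3 and 37.2 FPKM (adjusted p = 0.3), with 23.4% of its stretches shared, mainly with Acaa1b. Acad10, the least abundant member, lay between 1.41 and 1.83 FPKM in all libraries, on about 86 to 112 fragments each. The mitochondrial Hadh was 29.6 and 37.0 times as abundant as Ehhadh in Cdk8Tg and 92.8 and 120 times in WT.

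**Figure D3:**
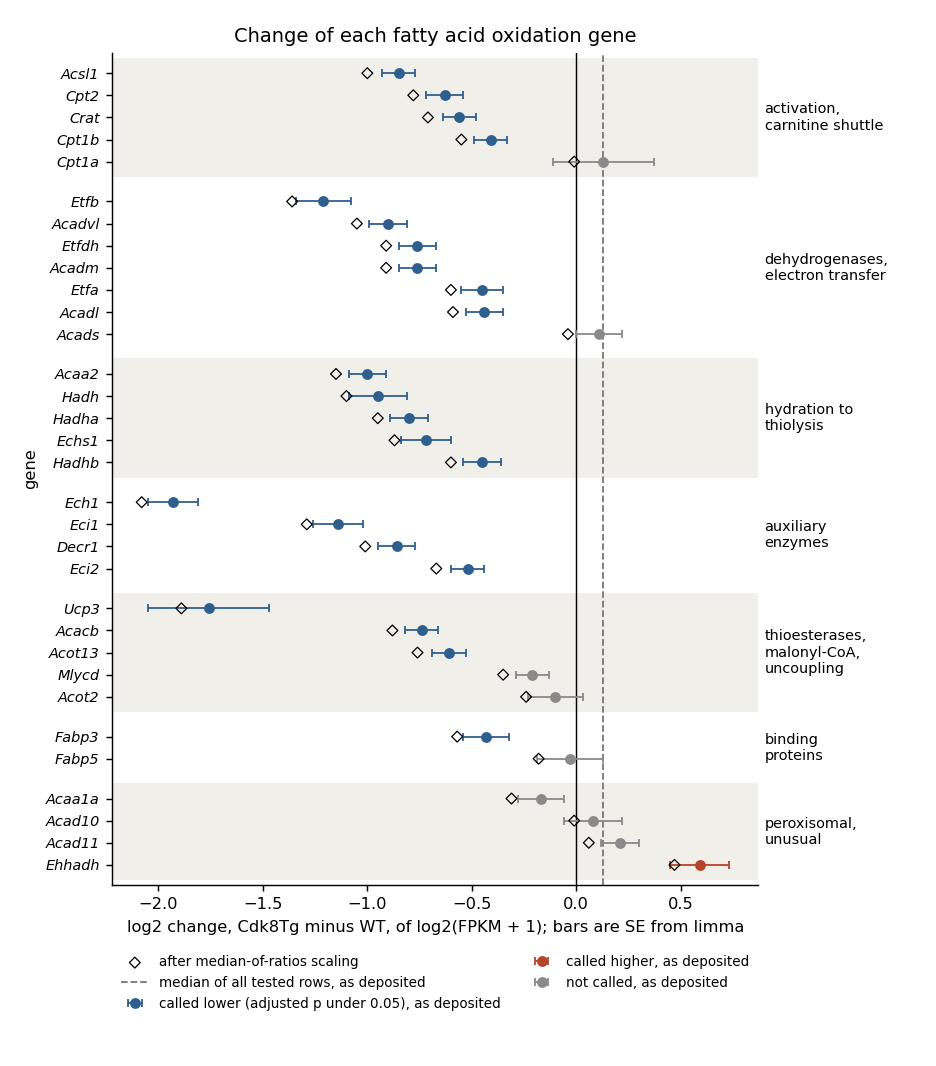
Log2 change (Cdk8Tg minus WT) of each gene with its SE from limma, as deposited (filled circles) and after median-of-ratios scaling (open diamonds); the dashed line is the median of all tested rows, 0.13. Blue genes were called lower, red higher and grey not called, and the blue genes run from Ech1 at -1.93 to Cpt1b at -0.41.

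Falls were found mostly among the abundant genes of the group. All 18 genes with a mean above 100 FPKM over the 4 libraries were called lower, against 5 of the 14 below that level, a limit chosen after the values were seen. Abundant transcripts in general were lower more often: 35.0% of the 629 tested rows above 100 FPKM were called lower, against 6.47% of the 11259 others. Together the genes other than the fatty acid binding proteins summed to 4793 and 4576 FPKM in Cdk8Tg and to 7897 and 8405 FPKM in WT. That was 1.07% and 1.04% of the FPKM sum in Cdk8Tg and 1.55% and 1.65% in WT.

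Other genes of the pathway were called in both directions. Of 21 further mitochondrial genes tested, 4 rose and 4 fell, where 16.9% of all rows were higher and 7.98% lower. On this deposited scale the share of rises was near that of all rows, as it was among the peroxisomal genes below. After median-of-ratios scaling 2 rose and 6 fell, where 7.96% of all rows were higher and 11.7% lower. On both scales the share of falls was above that of all rows, a difference that was not tested. Among the 4 most abundant, Slc25a20, the carnitine-acylcarnitine carrier of the inner membrane, was at 52.4 and 57.2 FPKM against 92.1 and 82.7 (log2 change -0.66 ± 0.10, limma adjusted p = 0.012). Hsd17b10 changed by -0.58 and Acss1, which activates acetate, by -0.71, both called, while Acat1, the thiolase of ketone metabolism, was at -0.23 (adjusted p = 0.14). The other fall was Acsf3, and the rises were the synthetases Acsl3 and Acsl4, the thioesterase Acot9 and the branched-chain dehydrogenase Acad8, named after their values were seen. Acsl4 and Acad8 were not called after median-of-ratios scaling (adjusted p = 0.091 and 0.19). Acsl3 was at 3.51 and 3.79 against 1.92 and 1.73 FPKM. After median-of-ratios scaling, 3 of 17 further peroxisomal genes rose and 4 fell, both shares above those of all rows. On the deposited scale, 3 rose and 1 fell. The fall was Scp2, a sterol carrier and thiolase, at -0.47 ± 0.08 (adjusted p = 0.016), while Phyh and Nudt7, also among the 4 most abundant, changed by -0.30 and -0.25 without a call (Nudt7 was called lower after median-of-ratios scaling, adjusted p = 0.045). The rises, again named after their values were seen, were Hacl1 at 0.70, Decr2 at 0.54 and Crot, the peroxisomal carnitine octanoyltransferase, at 0.49.

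Genes of supply and control were either lower or not called. Beside 7.98% lower and 16.9% higher over all tested rows, 4 of 9 genes of fatty acid uptake and binding fell and 0 rose. They included Lpl, the lipase that frees fatty acids from lipoproteins, at 341 and 279 FPKM against 1011 and 1036, Cd36, the main uptake receptor, at 259 and 282 against 383 and 412, and Got2, at 317 and 247 against 481 and 479. Cd36 and Got2 were not called under quantile normalization (adjusted p = 0.12 and 0.057). Fabp4, a binding protein of adipocytes and endothelium, was at 756 and 919 against 954 and 1015 FPKM and was not called (limma adjusted p = 0.21). Of 18 regulators, 5 fell and 0 rose (7 and 0 after median-of-ratios scaling, where 11.7% of all rows were lower and 7.96% higher). Ppara was at 14.0 and 11.5 FPKM against 18.7 and 21.5 (log2 change -0.62 ± 0.13, adjusted p = 0.024). Rxrg, of its RXR partner family, was at 17.8 and 11.3 against 33.1 and 34.3 FPKM (-1.19 ± 0.20, adjusted p = 0.016). Rxra and Rxrb of that family, named after their values were seen, changed by -0.17 and 0.03 without a call. Klf15 and the coactivator Lpin1 changed by -1.01 and -1.17. Ppargc1a, which encodes PGC-1alpha, was at 23.2 and 20.6 FPKM against 31.1 and 58.7, and was not called (-0.94 ± 0.28, adjusted p = 0.065). Leaving out WT replicate 1 gave -1.39 (adjusted p = 0.024), leaving out WT replicate 2 gave -0.49 (adjusted p = 0.11), and the authors' deposited table called it lower (q = 8.6e-04). Esrra, of the ERR family, changed by -0.36 ± 0.11 (adjusted p = 0.067, and 0.036 after median-of-ratios scaling). Its relatives Esrrb and Esrrg, named after their values were seen, changed by 0.10 and 0.19 without a call.

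PPAR targets outside oxidation and the enzymes of malonyl-CoA control went different ways. Of 10 PPAR targets tested, 4 fell and 0 rose, beside 7.98% lower and 16.9% higher over all tested rows. Plin5, which ties lipid droplets to mitochondria, was at 9.24 and 11.9 FPKM against 50.6 and 55.0 (log2 change -2.23 ± 0.13, limma adjusted p = 0.0022), and Pnpla2, the first lipase of stored fat, changed by -0.86. Pdk4, which restrains glucose oxidation, was at 44.4 and 84.5 against 99.4 and 206 FPKM without a call (adjusted p = 0.09), but the authors' deposited table called it lower (q = 8.6e-04). Txnip had overlapping groups. Of 10 genes of malonyl-CoA and AMPK control, 4 rose and 1 fell (3 and 1 after median-of-ratios scaling). Over all tested rows, 16.9% were higher and 7.98% lower (7.96% and 11.7% after that scaling). The 4 rises, named after their values were seen, included Acaca, the carboxylase of lipid synthesis, and Prkaa1. Prkaa1 was not called after median-of-ratios scaling (limma adjusted p = 0.13). The others were the AMPK gamma subunits Prkag2, at 17.7 and 18 against 8.62 and 8.26 FPKM, and Prkag3, at 3.44 and 4.75 against 0.642 and 0.739 FPKM. Stk11, a kinase that activates AMPK, changed by -0.32 (adjusted p = 0.036). This call was lost on the equal-sum scale (-0.13, adjusted p = 0.21), without a variance trend (adjusted p = 0.056), without any single library (adjusted p between 0.062 and 0.16) and in the authors' deposited table (q = 0.94). Prkag1, Prkaa2 and Prkab1 changed by -0.14, -0.09 and 0.08 without a call. Of the 14 genes called here by the rule for named genes, together with Cdk8, 13 and 12 of 15 were still called when Cdk8Tg replicate 1 or 2 was left out, but 6 and 4 when WT replicate 1 or 2 was, and with all rows kept in the fit Cdk8 alone was called.

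**Figure D4:**
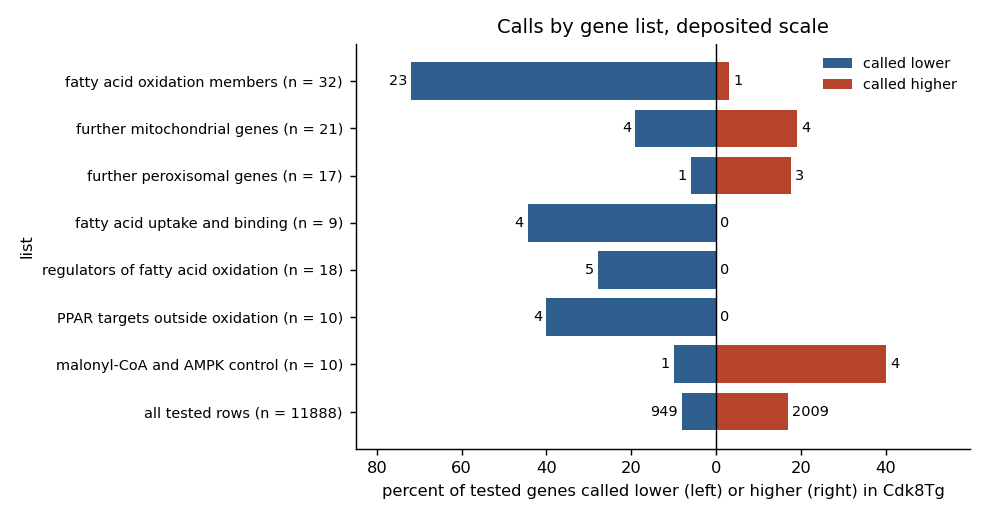
Percent of the tested genes of each list called lower (blue, to the left) or higher (red, to the right) in Cdk8Tg on the deposited scale, with the number of calls at each bar. The fatty acid oxidation genes have 23 calls lower and 1 higher, and all tested rows 949 and 2009.

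Cardiomyocyte markers were lower in Cdk8Tg, while markers of other cells in the ventricle went different ways. Over all tested rows, 7.98% were called lower and 16.9% higher, and 35.0% of those above 100 FPKM were called lower. The 8 cardiomyocyte markers summed to 34895 and 33212 FPKM in Cdk8Tg against 51407 and 49184 in WT, and 5 of 8 fell. Per 100 FPKM of these markers, the oxidation genes other than binding proteins held 13.7 and 13.8 FPKM in Cdk8Tg against 15.4 and 17.1 FPKM in WT. Fibroblast markers summed to 1115 and 1430 FPKM against 904 and 839, with 6 of 8 higher. Endothelial markers summed to 268 and 243 against 277 and 279 FPKM, with 0 of 6 called. A list labelled atrial myocyte held Myl7, Myl4, Sln, Nppa and Myh7, which are not confined to atria. It summed to 1128 and 2907 FPKM in Cdk8Tg against 732 and 276 in WT, with 2 of 5 higher. Macrophage and leukocyte markers summed to 80.7 and 106 against 137 and 137 FPKM, with 3 of 7 lower. Adipocyte markers, 8 in all, summed to 15.2 and 50.3 FPKM in Cdk8Tg against 20.3 and 17 in WT. Of these, 3 were tested and 0 called. No marker found on a single row was at 0 in every library, and some listed markers had no such row. In such tissue samples, fewer cells of a type and less RNA per cell cannot be told apart. The part of these marker differences in the fall of the oxidation genes was not tested.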

How the data were processed

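Polyadenylated RNA of 4 ventricle libraries was sequenced by the authors. TopHat 1.0.0, Cufflinks and Cuffdiff with mm10 are named in the submitters' processing notes. Libraries were stranded, per the labels' protocols. The sources used here do not give the annotation or the strand setting. The deposited tables give FPKM per gene and library, with sums of 440324 to 510844 FPKM, and, per the file headers, the authors' Cuffdiff p-value and q-value with an FPKM per group. Groups and replicate numbers come from the titles; nothing says that libraries came from separate animals, so the p-values reflect only how far these libraries spread, which may be technical.

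limma 3.58.1 (R 4.3.3, trended empirical Bayes, 2 residual degrees of freedom) was fitted to log2(FPKM + 1) of all rows with a mean of at least 1 FPKM; this scale understates changes of low genes. Benjamini-Hochberg adjusted p under 0.05 was called. Group values are given per library (n = 2). In data simulated for Cdk8Tg against WT, with 200 of 11888 genes changed 2-fold, 100% of them were recovered, with 11 false calls. The simulated noise had a spread set by expression level alone and no shift common to all genes. This recovery therefore does not cover genes that spread more widely than others of their level, such as Pdk4 and Ucp3. Nor does it cover changes smaller than 2-fold, and only 5 of the 23 fallen genes had a log2 change beyond -1. Depth, from the steps between low FPKM values, was about 12900000 to 15400000 fragments, if FPKM were scaled by each library's own total. Shared 31-base stretches and exon overlaps come from GENCODE (GRCm38), where 21 of the 32 genes shared at most 10% of their stretches and 15 of these fell.

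Members and lists were chosen with earlier results of these data known. All members were named, and from each other list the 4 most abundant genes, plus Ppara, Ppargc1a, Esrra and Rxrg; 1 gene that this rule selects is not reported here. Alternatives were pseudocounts of 0.1 and 5, no filter or 5 FPKM, 3 other scalings, other variance models, the replicate block, leaving out each library, and the authors' calls.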

Additional observations from a re-analysis of the deposited data

How the results depend on the processing

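Of 32 genes, 23 fell, 1 rose and the median log2 change was -0.59, with 2958 calls over all rows. With no filter on low values, 279 rows were called and 0 of the 32 genes fell or rose, with unchanged log2 changes; the cause was not tested. Leaving out single libraries gave 287 to 2380 calls, 1 to 23 falls, 0 to 1 rises and medians of -0.61 to -0.55. The equal-sum scale gave 5552 calls, 18 falls, 2 rises and a median of -0.39; median-of-ratios scaling a median of -0.73, quantile normalization -0.48 with 19 falls, and the authors' calls 1730 and a median of -0.75. The rise was also absent (0) with median-of-ratios scaling, quantile normalization, the authors' calls and a minimum of 5 FPKM, which removes Ehhadh.

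Genes without a call changed sign as follows. With median-of-ratios scaling Acads was at -0.04, Cpt1a at -0.01, Acad10 at -0.01 and Prkab1 at -0.06. With quantile normalization Acad10 was at -0.06, Phyh at 0.01, Fabp4 at 0.17 and Prkab1 at -0.03. On the equal-sum scale Acaa1a was at 0.02, Acot2 at 0.09, Fabp5 at 0.16, Prkag1 at 0.05 and Prkaa2 at 0.10. In the authors' table Acads was at -0.05, Cpt1a at -0.02 and Prkab1 at -0.07. Leaving out single libraries gave ranges of -0.02 to 0.24 for Acads, -0.14 to 0.41 for Cpt1a, -0.23 to 0.03 for Acot2, -0.22 to 0.16 for Fabp5, -0.02 to 0.18 for Acad10, -0.64 to 0.05 for Txnip, -0.22 to 0.04 for Prkaa2 and -0.01 to 0.17 for Prkab1.

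Whether the replicate numbers pair the samples was not settled. Deviations of same-numbered libraries from their group means correlated at -0.03 over 11888 rows, which cannot exclude a pairing that affects only some genes. With the replicate block, 22 genes fell and 1 rose, with a median of -0.59. The block ended the calls of Fabp3 (adjusted p = 0.11) and Stk11 (adjusted p = 0.051) and added calls for Esrra (adjusted p = 0.049), Ppargc1a (adjusted p = 0.047) and Pdk4 (adjusted p = 0.0033). Depth limits the least abundant genes most, Acad10, Ehhadh and Ucp3.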
